A study of Danio rerio with 18 samples.

Results

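The mRNAs described here encode the translation initiation factors of the zebrafish and their direct partners. They were taken as every gene of the deposited table whose symbol, looked up by Ensembl identifier, begins with eif and a digit from 1 to 6, in either case, which gave 66 of 27015 genes with 59 distinct symbols when case is ignored. Genes that share a symbol are given with their Ensembl identifier. Capital or small letters in a symbol carry no meaning here. The study followed pooled whole embryos of the wild-type AB strain at 6 stages, egg, 1-cell, 16-cell, 128-cell, 3.5 hours post fertilization (hpf) and 5.3 hpf, without any treatment or mutation. At each stage RNA was sequenced from the fraction bound to polysomes, from the unbound fraction and without fractionation, each time depleted of ribosomal RNA. Each of these 18 conditions has 1 library, so no condition has replicates. Each p below measures an effect against how much the stages vary, in the tests of single genes with a variance partly shared across genes. The question put by the design is which mRNAs sit on polysomes, the strings of ribosomes that translate an mRNA, as the egg becomes an embryo.

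Initiation factors bring the small ribosomal subunit, the initiator tRNA and the mRNA together. eIF2 carries the initiator tRNA and is recharged by eIF2B, eIF3 and the small factors eIF1 and eIF1A hold the scanning subunit, and eIF4E, eIF4G and eIF4A bind the cap, bridge it to the ribosome and unwind the leader. The egg and the cleaving embryo transcribe little of their genome, so the mRNAs of these factors are then mostly maternal. Maternal mRNAs in general are joined or replaced by embryonic transcripts when the genome becomes active, between the 128-cell stage and 5.3 hpf. How far this holds for the mRNAs of these factors was not tested.

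Levels below are normalized counts from the authors' gene table, in which reads are divided by a factor for each library and, for genes with several transcripts, adjusted for transcript length. Reads assigned to transcripts ranged from 30.67 to 71.65 M (M, 1e6 reads) per library. All 66 mRNAs passed the filter on low values (10 or more counts in 2 or more libraries), both in the fractions and in the unfractionated libraries. Markers of the egg, 7 genes such as buc and MOS, summed to 5711 and 32089 in the late unfractionated libraries and to 90832 to 100067 in the early ones. The 8 markers of embryonic transcription, such as noto and tbx16, summed to 31757 and 227370 late and to 884 to 1130 early. Follicle markers, of which 7 of 9 were in the table, summed to 679 and 883 late and 193 to 261 early, and the sums of liver and blood markers reached 90.7 and 50.6 at most in any unfractionated library. The part of other cell types in the results was not tested. Whole embryos were measured, so fewer cells of a type and less RNA per cell cannot be told apart. Close paralogues may share reads, and the split between them rests on the authors' transcript estimates.

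Levels of different genes can be compared only per unit of length, as TPM, an abundance corrected for transcript length. This was possible for the 50 mRNAs that could be matched to transcripts by their values. In the unfractionated egg the highest of the 50 was EIF1B, a paralogue of EIF1, which guards start codon choice, at 1206 TPM. It was followed by the helicase eif4a1a at 744 TPM, the eIF1A mRNAs eif1axb and eif1axa at 708 and 633 TPM, the eIF2 gamma subunit EIF2S3B at 541 TPM and EIF5A2, a form of the elongation and termination helper eIF5A, at 526 TPM. At the low end were EIF2AK4, the kinase that senses uncharged tRNA, at 4.67 TPM and EIF4A2 at 1.51 TPM. The 12 matched genes for eIF3 subunits ranged from 35.5 TPM for EIF3L to 240 TPM for EIF3J (ENSDARG00000012603.8) in the egg. EIF3J encodes a loosely bound subunit, and the next highest was EIF3M at 158 TPM. Short annotated transcripts raise such values, so the order is approximate. The cap-binding mRNAs were lower than the helicase, with EIF4E3 at 212 TPM, EIF4E1B at 96.6 TPM and EIF4E at 22.5 TPM in the egg.

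Across the 6 stages, 13 of the 66 mRNAs were higher in the bound than in the unbound fraction and 11 were lower, by limma with Benjamini-Hochberg adjustment over all genes (adjusted p under 0.05). Of all 24893 genes tested, 8.46% were higher and 7.1% lower. The median log2 ratio of bound over unbound was −0.11 for the 66 and −0.01 for all genes tested. In 13 of the 66 (19.7%) the bound value exceeded the unbound value at all 6 stages, against 9.18% of all genes, and in 6 (9.09%) it was below at all 6 stages, against 10.4%. The groups of factors stood on different sides. The median log2 ratio was −0.97 for the 6 eIF2 and related mRNAs, −0.43 for the 5 eIF2B subunits and −0.36 for the 17 eIF3 mRNAs. Under each scaling tried these 3 medians stayed below 0, at −0.71, −0.17 and −0.10 with median centring, which raised the ratios. The median ratio was 1.44 for the 4 eIF4A mRNAs, 0.78 for the 5 mRNAs of eIF4E-binding proteins, 0.74 for the 5 eIF4G and 0.63 for the 7 eIF4E mRNAs. These became −0.03, −0.70, −0.74 and −0.85 when the fractions were scaled to the reads of 4 entries of the transcript tables that have no zebrafish transcript identifier (the control entries). Their role is not given in the sources used here, and they held 199771 to 1255619 reads in each fraction library and 5 to 59 in each unfractionated one. With that scaling 1 of the 66 was higher and 40 lower, and EIF1, EIF2B3, EIF3A, EIF3M, eif4e1c and EIF4G3 (ENSDARG00000077215.3) turned to the unbound side. That scaling moved the median of all genes to −1.35, library totals (7 higher, 26 lower) moved it to −0.54 and median centring (18 higher, 3 lower) to 0.24. The control entries and library totals lower all ratios, so neither could bring the medians of eIF2, eIF2B and eIF3 above 0. Of all calls, 54.4% were higher, against 15.7% with library totals, 77.5% with median centring and 1.26% with the control entries.

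The ratio then changed with stage. Between the 2 late and the 4 early stages, the log2 ratio of bound over unbound was higher late for 12 of the 66 mRNAs and lower for 2, by the limma interaction term with adjustment over all genes. Of all genes tested, 2.36% were higher and 5.39% lower, 7.75% in all. Of those calls 30.4% were higher, against 48.4% to 52.5% with library totals, median centring, TMM and edgeR and 91.6% with the control entries. The median change was 0.40 for the 66 and −0.51 for all genes tested. In 23 of the 66 (34.8%) both late ratios lay above all 4 early ones, against 10% of all genes, and in 11 (16.7%) both lay below, against 23.6%. The median ratio of the 66 was −0.33, −0.18, −0.47 and −0.41 at the 4 early stages in order, 0.19 at 3.5 hpf and 0.55 at 5.3 hpf, while that of all genes tested was 0.03, 0.04, 0.13, 0.02, −0.24 and −0.36. The change was not shared by all groups: it had a median of 1.99 for eIF2, 1.13 for eIF2B, 1.02 for eIF1 and eIF1A and 0.84 for eIF3, against 0.04 for eIF4E, 0.04 for eIF4G, −0.20 for eIF4A and −1.68 for the eIF4E-binding proteins. The last 2 medians were 0.91 and −0.56 with the control entries, which moved the median of all genes to 0.50, and that of eIF4A was 0.05 to 0.09 with library totals, median centring, TMM and edgeR. Without 3.5 hpf no gene of the whole table passed by limma, and 29 of the 66 had an unadjusted p under 0.05. Without 5.3 hpf 4 of the 66 were higher and 3 lower.

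**Figure D1:**
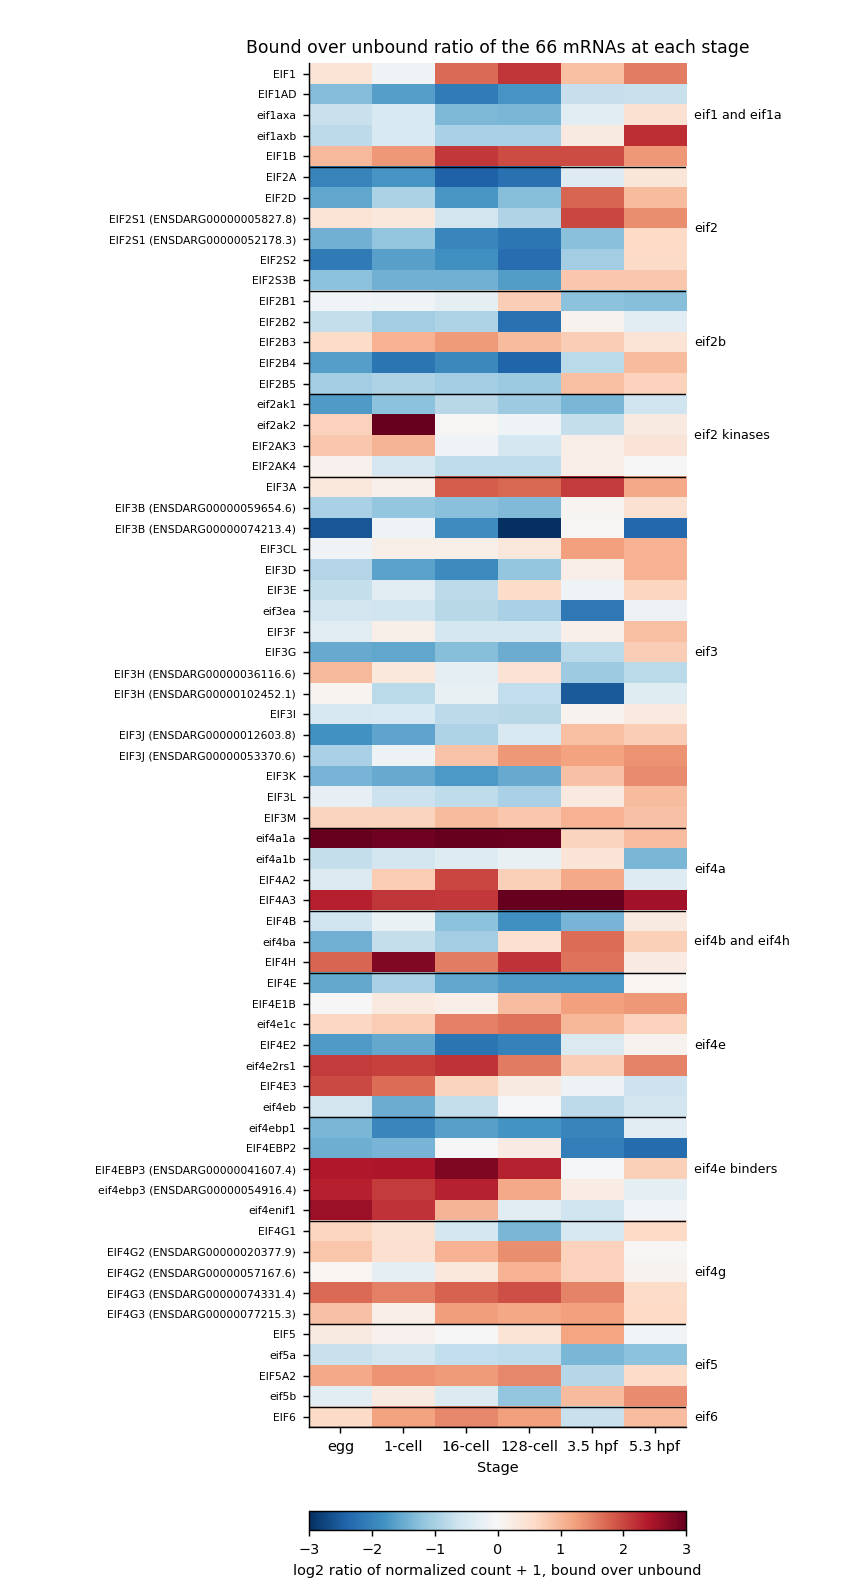
Log2 ratio of the normalized count + 1 in the bound over the unbound library, for each of the 66 mRNAs (rows, by group of factors) at each stage (columns); colours saturate at 3 and −3. Most eIF2 rows and many eIF3 rows turn from blue at the 4 early stages to red at 3.5 or 5.3 hpf, while eif4a1a and both eIF4E-binding protein 3 rows are red at the early stages and paler or blue late.

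**Figure D2:**
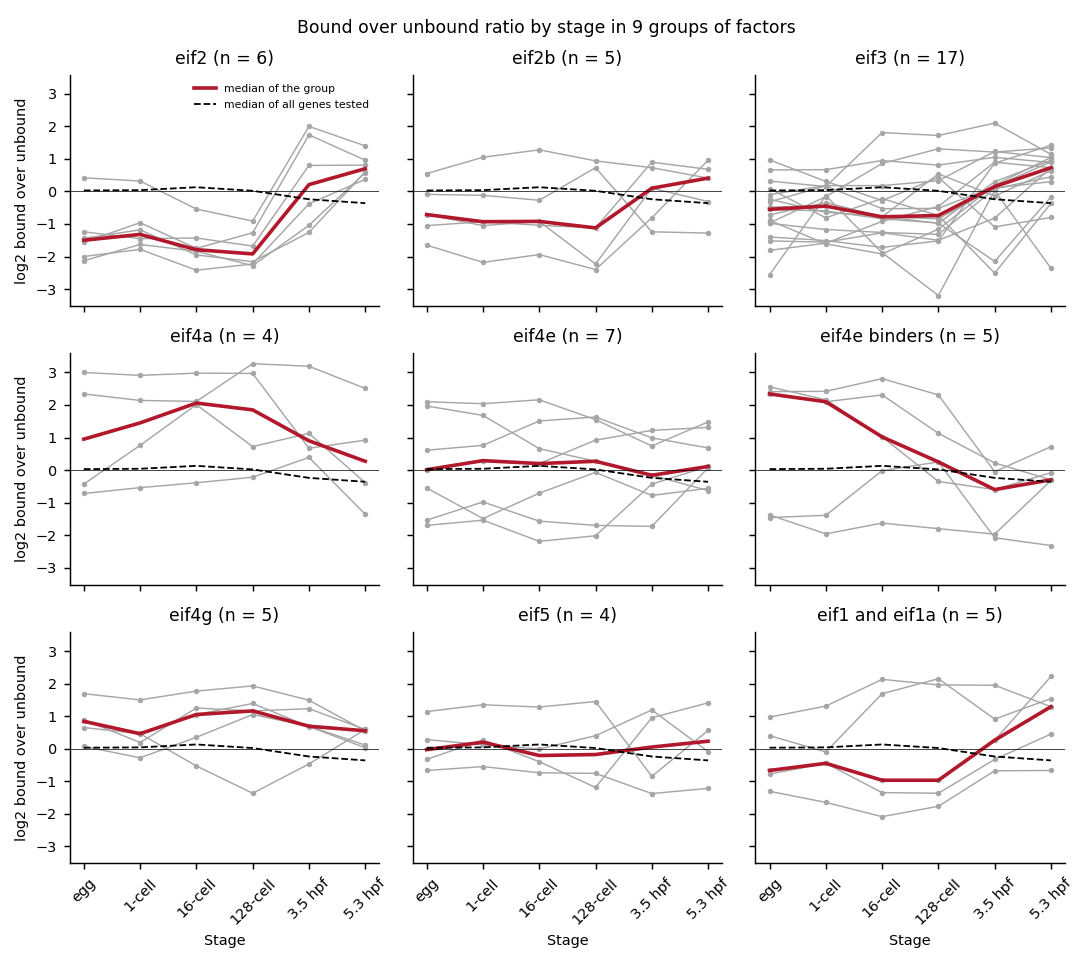
Log2 ratio of bound over unbound by stage in 9 groups of factors; grey lines are single mRNAs, the red line the group median and the dashed line the median of all genes tested. The eif2 median lies between −1.92 and −1.32 at the early stages and at 0.21 and 0.70 at the late ones, and that of the eif4e binders lies at 2.34 in the egg and −0.30 at 5.3 hpf.

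The eIF2 group had the highest median change of the 12 groups. Of its 6 mRNAs, 4 were higher late and the other 2 did not pass, against 2.36% higher of all genes tested. In 5 of the 6 both late ratios lay above all 4 early ones, against 10% of all genes tested. EIF2S3B (ENSDARG00000008292.7), the gamma subunit that binds GTP and the initiator tRNA, had 6099, 5913, 5169, 4827, 10360 and 13650 counts in the bound libraries from egg to 5.3 hpf, and 14455, 16186, 13946, 15482, 5931 and 7798 in the unbound ones. By these counts the unbound fraction held more of it at each early stage and the bound fraction more at both late stages. Here and below, which fraction is the larger at a stage depends on how its libraries are scaled. Such crossings were not tested under other scalings. The log2 ratio of EIF2S3B changed by 2.26 ± 0.34 (SE, 12 libraries; limma adjusted p 0.00793), 4.79-fold, and this call was lost in 1 of 16 alternatives, without 3.5 hpf (adjusted p 0.0568). The unfractionated level moved less, at 7907 and 10373 late and 10562 to 13231 early, a difference that did not pass (log2 −0.42 ± 0.20, adjusted p 0.143).

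EIF2D (ENSDARG00000012929.5), which can deliver tRNA to the ribosome without GTP and acts in recycling, changed most. It had 1201, 1908, 1039, 1384, 3544 and 870 bound counts and 3540, 3713, 3509, 3345, 1060 and 446 unbound counts from egg to 5.3 hpf. Both fractions were low at 5.3 hpf, yet the bound value was above the unbound one at both late stages and below it at each early stage. The change was 2.74 ± 0.39 (adjusted p 0.00684), lost only without 3.5 hpf (adjusted p 0.0613) of 16 alternatives. EIF2A, a separate factor that can bring initiator tRNA to some mRNAs, had 174, 182, 213, 140, 251 and 600 bound counts and 699, 630, 1140, 662, 327 and 463 unbound counts. Only at 5.3 hpf was its bound value the higher one. Its ratio changed by 2.10 ± 0.48 late over early (adjusted p 0.0286), while over all stages it was lower in the bound fraction (−1.41 ± 0.39, adjusted p 0.0334). The late change was lost in 7 of 16 alternatives, with every stage left out but 128-cell (adjusted p up to 0.123, without 5.3 hpf), and the overall call in 8 of 16, among them each early stage left out (up to 0.12, without 16-cell), TMM scaling, median centring and edgeR.

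The beta subunit EIF2S2 (ENSDARG00000053047.2), which binds eIF5 and eIF2B, had 2096, 2966, 2186, 1806, 5046 and 8969 bound counts against 9151, 9161, 7804, 8775, 10372 and 6013 unbound counts. Bound values lay below unbound ones until 3.5 hpf and above them at 5.3 hpf. It was lower in the bound fraction over all stages (−1.39 ± 0.36, adjusted p 0.0227; up to 0.0882 without 128-cell), and its late change of 1.74 ± 0.47 did not pass (adjusted p 0.054). The alpha subunit, the site that the eIF2 kinases phosphorylate, has 2 genes. EIF2S1 (ENSDARG00000005827.8) had 14038, 12976, 7854, 5995, 19933 and 20240 bound counts and 10464, 10378, 11422, 11275, 4968 and 7666 unbound counts. Its ratio declined through cleavage, by 0.49 ± 0.12 per stage step on the log2 scale (adjusted p 0.032; 0.557 without 128-cell), and was higher late by 1.88 ± 0.48 (adjusted p 0.0432). The call for the late change was lost when any single stage was left out (adjusted p up to 0.276, without 3.5 hpf). EIF2S1 (ENSDARG00000052178.3) had 1221, 1412, 872, 671, 599 and 1257 bound counts and 3315, 3194, 3370, 3014, 1434 and 828 unbound counts. It was lower in the bound fraction over all stages (−1.23 ± 0.33, adjusted p 0.0294), although not at 5.3 hpf. That call was lost in 7 of 16 alternatives, with median centring, without the stage block and with any stage but 5.3 hpf left out (adjusted p up to 0.11, without 16-cell).

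eIF2B, the exchange factor that reloads eIF2 with GTP, has 5 subunits, each with 1 gene here. The catalytic subunit EIF2B5 (ENSDARG00000074995.3) had 1612, 1709, 1525, 1659, 2692 and 1876 bound counts and 3339, 3267, 3138, 3599, 1445 and 1170 unbound counts from egg to 5.3 hpf. By these counts the fractions changed places between the 128-cell stage and 3.5 hpf, with a change of 1.82 ± 0.32 (adjusted p 0.0112; 0.0577 without 3.5 hpf). EIF2B4, the regulatory delta subunit, had 1382, 990, 1022, 1059, 1633 and 2342 bound counts and 4351, 4498, 3936, 5609, 2867 and 1203 unbound counts. Its change was 2.12 ± 0.49 (adjusted p 0.0314), and leaving out any stage except 128-cell ended the call (adjusted p up to 0.145, without 5.3 hpf). Over all stages it was lower in the bound fraction (−1.34 ± 0.40, adjusted p 0.042). The overall call was lost in 8 of 16 alternatives, with TMM scaling, median centring and edgeR and with any stage but 5.3 hpf left out (adjusted p up to 0.141, without 128-cell). EIF2B3, the gamma subunit of the catalytic pair, went the other way. It had 303, 1103 and 1245 counts as lowest, median and highest in the bound libraries and 228, 533 and 725 in the unbound ones, and bound was above unbound at all 6 stages (0.83 ± 0.24, adjusted p 0.0395). That call was lost in 8 of 16 alternatives. It ended when any of the 4 early stages was left out (adjusted p up to 0.148, without 16-cell) and when reads were summed without the length adjustment (0.71, adjusted p 0.0867). It also ended with library totals, without the stage block and with the control entries, where the estimate was −0.65. EIF2B2, the beta subunit, had log2 ratios from −2.23 to 0.10 and EIF2B1, the alpha subunit, from −1.28 to 0.73. Neither passed in any test of the bound over unbound ratio.

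Of the 17 eIF3 mRNAs, 2 were higher and none lower in the bound fraction over all stages, against 8.46% and 7.1% of all genes tested. The 2 of 17 are near that share. The ratio was higher late for 4 and lower for none, against 2.36% and 5.39% of all genes tested. EIF3G (−0.99 ± 0.32, adjusted p 0.0562) and eif3ea (−0.88 ± 0.28, adjusted p 0.0522) came close to the threshold on the unbound side over all stages without passing it. In 8 of the 17 both late ratios lay above all 4 early ones, against 10% of all genes tested. The median ratio was −0.55, −0.45, −0.78, −0.74, 0.15 and 0.73 from egg to 5.3 hpf. EIF3K (ENSDARG00000068289.4), a small peripheral subunit, had 798, 749, 697, 836, 1992 and 3856 bound counts and 2109, 2134, 2292, 2405, 1089 and 1444 unbound counts. In these counts the 4 early pairs were nearly equal to each other and the 2 late pairs were reversed, with a change of 2.68 ± 0.34 (6.41-fold, adjusted p 0.00618; 0.0529 without 3.5 hpf). Its unfractionated level was 1153 and 2276 late and 1680 to 1802 early and did not pass (adjusted p 0.803).

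EIF3D, a subunit that in human cells can bind the cap of some mRNAs, had 1164, 1016, 1222, 1375, 2359 and 6630 bound counts and 2157, 3095, 4618, 3079, 2065 and 3193 unbound counts. Its bound value was below the unbound one early and above it late (2.02 ± 0.42, adjusted p 0.0205; up to 0.125 without 5.3 hpf). EIF3B (ENSDARG00000059654.6), a core scaffold subunit, had 4732, 4764, 2263, 2563, 5041 and 12419 bound counts and 9312, 10743, 5407, 6413, 4764 and 9120 unbound counts. Its change was 1.45 ± 0.33 (adjusted p 0.0298; up to 0.108 without 16-cell). The second EIF3B gene (ENSDARG00000074213.4) had at most 88.1 counts in any library and did not pass in any comparison. The 2 subunits higher in the bound fraction over all stages were EIF3A and EIF3M. EIF3A (ENSDARG00000076815.4), the scaffold of the complex, had 19784, 18763, 49231, 31616, 38370 and 30505 bound counts and 15881, 16967, 14015, 9621, 8936 and 13875 unbound counts. It was higher in bound libraries at all 6 stages (1.20 ± 0.34, adjusted p 0.0337), with the smallest ratios in the egg and at the 1-cell stage. The call was lost in 5 of 16 alternatives, those without 16-cell (adjusted p 0.122), 128-cell or 3.5 hpf and those with library totals or the control entries. EIF3M, another subunit of the complex, had 5329, 6430 and 7802 bound counts and 2574, 3865 and 4220 unbound counts as lowest, median and highest. Its fractions did not overlap (0.84 ± 0.21, adjusted p 0.0211), and its ratio stayed between 0.66 and 1.05 at all stages. That call was lost in 6 of 16 alternatives, when any of the 4 early stages was left out (adjusted p up to 0.0915, without 16-cell) and with library totals or the control entries.

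The 2 EIF3J genes, for the loosely bound subunit that sits near the decoding centre, gained in the bound fraction through cleavage. EIF3J (ENSDARG00000012603.8) had 3280, 4231, 5212, 6050, 9264 and 3238 bound counts and 11529, 12734, 9885, 8342, 4970 and 1952 unbound counts. Its log2 ratio was higher at each of the stages from egg to 3.5 hpf than at the one before, by 0.47 ± 0.12 per step over the 4 early stages (adjusted p 0.03; 0.583 without 128-cell), and was higher late by 2.01 ± 0.44 (adjusted p 0.0245; up to 0.168 without 3.5 hpf). With reads summed without the length adjustment the late change was 1.09 (adjusted p 0.163). EIF3J (ENSDARG00000053370.6) had 1510, 1636, 2521, 2438, 2995 and 2656 bound counts and 2959, 1822, 1385, 985, 1290 and 1052 unbound counts. Its slope was 0.79 ± 0.13 per step (adjusted p 0.0052; 0.112 without 128-cell), and its bound value exceeded the unbound one from the 16-cell stage on.

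**Figure D3:**
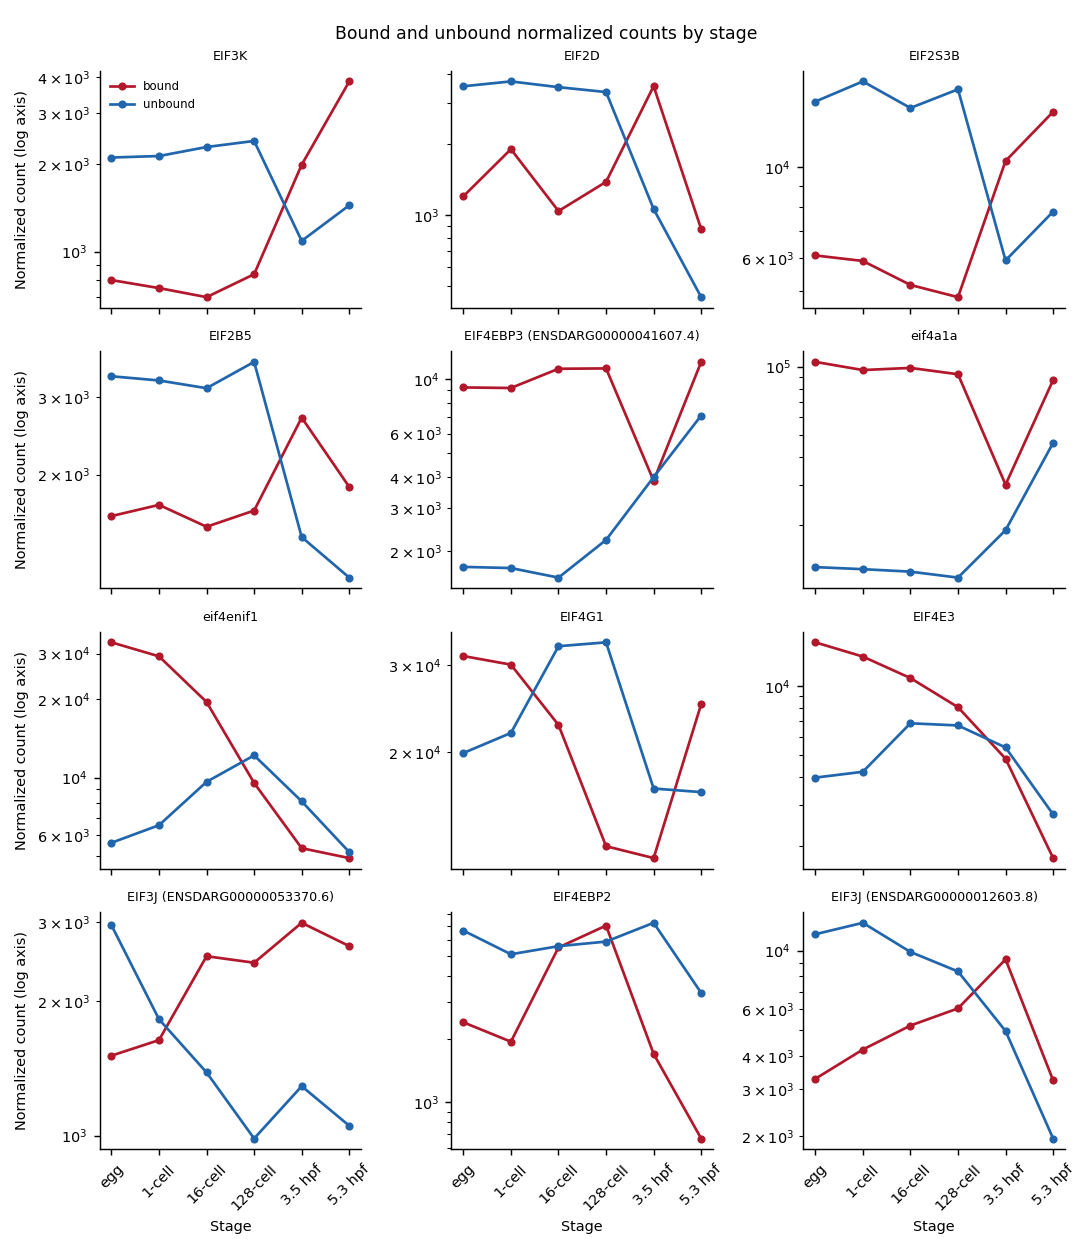
Normalized counts in the bound (red) and unbound (blue) libraries by stage, on log axes, for mRNAs past the threshold in the late against early test (first 6 panels) or in the slope over the 4 early stages (last 6 panels). In these counts EIF3K, EIF2D, EIF2S3B and EIF2B5 cross between 128-cell and 3.5 hpf, eif4enif1 between 16-cell and 128-cell and EIF4G1 between 1-cell and 16-cell. The crossings depend on how the libraries are scaled.

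The eIF4A group held the highest ratios. EIF4A3 (ENSDARG00000102978.1), the helicase of the exon junction complex, had 21308, 24100 and 27953 bound counts and 2331, 4879 and 5400 unbound counts as lowest, median and highest. Its lowest bound library held more than its highest unbound library, and its estimate of 2.59 ± 0.27 (6.03-fold, adjusted p 0.000459) passed in all 16 alternatives. eif4a1a (ENSDARG00000092115.3), the helicase of the cap-binding complex, had 104857, 96512, 98641, 92500, 30190 and 87260 bound counts and 13088, 12817, 12500, 11766, 19036 and 46155 unbound counts from egg to 5.3 hpf. It was higher in the bound fraction at each stage (2.24 ± 0.42, adjusted p 0.00543). With the control entries that estimate was 0.76 and did not pass. Its log2 ratios were 2.91 or more in the egg and cleavage stages, then 0.67 and 0.92 at 3.5 and 5.3 hpf. The late change was −2.17 ± 0.42 (4.52-fold, adjusted p 0.0166). That call was lost in 5 of 16 alternatives, without the egg, 16-cell or 3.5 hpf, without the stage block and with the control entries. The change was −2.05 without 3.5 hpf and −1.05 with the control entries. The bound library at 3.5 hpf held the lowest of its bound counts, 30190. Reads summed without the length adjustment lay closer together, with 78505 bound and 15800 unbound in the egg. They were 26250 and 26059 at 3.5 hpf, and 71144 and 57801 at 5.3 hpf. Both calls for eif4a1a held with these reads.

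eif4a1b, its paralogue, had 2390, 2685 and 3468 bound counts and 1998, 4258 and 6148 unbound counts, overlapping between fractions (−0.47 ± 0.26, adjusted p 0.251). EIF4A2, a helicase isoform, had 84.9, 151, 83.6, 117, 222 and 1938 bound counts and 115, 89.2, 20, 70.5, 101 and 2534 unbound counts. Its fractions did not differ past the threshold, and both were far higher at 5.3 hpf than before. EIF4H, a helper of the helicase, had 6227, 7047 and 8380 bound counts and 1093, 2081 and 5236 unbound counts. The fractions did not overlap (1.68 ± 0.31, adjusted p 0.00467), though at 5.3 hpf the ratio was 0.25. With the control entries the estimate for EIF4H was 0.20 and did not pass. The other helper, eIF4B, has 2 genes here, EIF4B with log2 ratios of −1.85 to 0.26 and eif4ba with −1.43 to 1.67, and neither passed in any comparison.

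The eIF4E mRNAs, for the proteins that bind the cap, split by paralogue, with 2 on the bound side, 2 on the unbound side and 3 that did not pass. Of all genes tested, 8.46% passed on the bound side and 7.1% on the unbound side. eif4e2rs1 (ENSDARG00000015835.8), a gene related to EIF4E2, had 7351, 8484, 7470, 6771, 3350 and 6135 bound counts and 1719, 2062, 1673, 2314, 2000 and 2200 unbound counts. Each bound library was above every unbound one (1.68 ± 0.25, adjusted p 0.00175). With the control entries its estimate was 0.20 and did not pass. eif4e1c, a fish form of eIF4E, had 6654, 8317 and 10417 bound counts and 3352, 3934 and 5630 unbound counts, again without overlap (1.03 ± 0.24, adjusted p 0.0158; 0.0796 without 16-cell). EIF4E2, the homologue that represses translation in other vertebrates, was on the other side.

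EIF4E2 (ENSDARG00000038585.7) had 1241, 1034, 429, 718, 1633 and 1348 bound counts and 4027, 3012, 1966, 2915, 2205 and 1247 unbound counts. It was lower in the bound fraction over all stages (−1.29 ± 0.32, adjusted p 0.0201; up to 0.085 without 16-cell), with near equal fractions at 5.3 hpf, and its ratio was higher late by 1.70 ± 0.37 (adjusted p 0.0238; 0.105 without 5.3 hpf). EIF4E (ENSDARG00000077012.2) had 323, 420, 108, 136, 72.4 and 997 bound counts and 937, 832, 323, 444, 242 and 950 unbound counts. Its ratio was below 0 until 3.5 hpf and 0.07 at 5.3 hpf (−1.24 ± 0.31, adjusted p 0.0208; 0.0752 without 128-cell). EIF4E3, a cap binder with an atypical pocket, had 15529, 13452, 10830, 8073, 4801 and 1762 bound counts and 3967, 4208, 6863, 6715, 5378 and 2736 unbound counts. Its bound count was lower at each stage than at the one before, and its ratio fell by 0.61 ± 0.12 per step over the 4 early stages (adjusted p 0.0106; 0.308 without 128-cell). Its late change of −1.54 ± 0.51 did not pass (adjusted p 0.102), but was −2.08 (adjusted p 0.026) with reads summed without the length adjustment. EIF4E1B, the form known from oocytes, had ratios of 0.01 to 1.31, all above 0, and eif4eb ratios of −1.49 to −0.07, all below 0, and neither passed.

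The proteins that hold eIF4E away from eIF4G had mRNAs on both sides, and the median change of their ratios was the lowest of the 12 groups. EIF4EBP3 (ENSDARG00000041607.4) had 9231, 9183, 10989, 11024, 3864 and 11717 bound counts and 1731, 1712, 1566, 2226, 3998 and 7105 unbound counts. Its ratio was 2.31 to 2.81 early, −0.05 at 3.5 hpf and 0.72 at 5.3 hpf, a change of −2.15 ± 0.36 (4.45-fold, adjusted p 0.0104; 0.0675 without 3.5 hpf). With the control entries that change was −1.02 and did not pass. Over all stages the bound fraction was higher by 1.77 ± 0.38 (adjusted p 0.00976), and by 0.29 with the control entries, where this did not pass. The second gene, eif4ebp3 (ENSDARG00000054916.4), had 499, 376, 368, 286, 460 and 738 bound counts and 97.5, 87.2, 73.5, 130, 396 and 907 unbound counts. Its ratios ran from 1.13 to 2.34 early and were 0.22 and −0.30 late, but neither the change (−2.01 ± 0.56, adjusted p 0.0594) nor the overall ratio (1.30 ± 0.41, adjusted p 0.0516) passed.

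eif4ebp1 (ENSDARG00000043608.4) was lower in the bound fraction at all 6 stages, with 969, 1233 and 2412 bound counts and 3018, 3595 and 5026 unbound counts as lowest, median and highest. The fractions did not overlap, and its estimate of −1.51 ± 0.26 (2.85-fold lower, adjusted p 0.00366) passed in all 16 alternatives. EIF4EBP2 had 2410, 1946, 5502, 7000, 1702 and 669 bound counts and 6625, 5104, 5580, 5869, 7220 and 3333 unbound counts. Its ratio increased by 0.65 ± 0.14 per step in the early stages (adjusted p 0.0143; 0.257 without 128-cell) and was −2.08 and −2.32 at the late ones. Over all stages it was lower in the bound fraction (−1.17 ± 0.35, adjusted p 0.0455; up to 0.111 without the egg). The overall call was lost in 7 of 16 alternatives, among them median centring, no stage block and no filter on low values. eif4enif1 (ENSDARG00000016177.9), which carries eIF4E into the nucleus and represses mRNAs, had 33118, 29257, 19529, 9536, 5351 and 4903 bound counts and 5614, 6559, 9630, 12172, 8104 and 5168 unbound counts. Each bound library held less than the one of the stage before, while the unbound count was highest at the 128-cell stage. The slope was −0.99 ± 0.13 per step (1.98-fold lower per step, adjusted p 0.00227; 0.218 without 128-cell). Its unfractionated count was 10165 to 10388 through these 4 stages.

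Over the 4 early stages, 5 of the 66 mRNAs had a rising and 5 a falling log2 ratio of bound over unbound by limma with adjustment over all genes. Of all 22250 genes tested, 4.05% rose and 4.7% fell, 8.76% in all. The share of calls that rose was 46.3%, against 26.1% with the control entries. The median slope was −0.05 per stage step for the 66 and −0.02 for all genes tested. EIF4G1 (ENSDARG00000006200.10), the scaffold that joins the cap complex to eIF3, had 31331, 30099, 22719, 12905, 12211 and 25045 bound counts. Its unbound counts were 19930 and 21887 in the egg and at the 1-cell stage, 32801 and 33398 at 16-cell and 128-cell, and 16609 at 5.3 hpf, and its log2 ratio at 3.5 hpf was −0.47. The bound fraction held more in the egg and at the 1-cell stage and less at 16-cell, 128-cell and 3.5 hpf, with a slope of −0.71 ± 0.13 (adjusted p 0.00881; 0.501 without 128-cell). EIF1 (ENSDARG00000012688.9), which opens the subunit for scanning, moved up, with 2305, 1914, 6266, 5752, 3089 and 10027 bound counts and 1749, 2056, 1944, 1299, 1648 and 3436 unbound counts. Its slope was 0.70 ± 0.18 (adjusted p 0.0311) and 0.63 with reads summed without the length adjustment, which did not pass (adjusted p 0.0661). Over all stages its bound level was 2.14-fold that of the unbound fraction (adjusted p 0.0333, SE 0.31 on the log2 scale; up to 0.122 without 16-cell), a call that was lost with reads summed without the length adjustment (adjusted p 0.0698). EIF3A also gained (0.59 ± 0.16, adjusted p 0.0473), and EIF2AK3, the kinase of the endoplasmic reticulum stress response, lost. It had 21363, 22500, 14101, 9208, 4653 and 2326 bound counts and 12158, 11119, 15138, 13178, 4092 and 1775 unbound counts (−0.51 ± 0.14, adjusted p 0.0435), so that the bound fraction was the larger one in the egg and at the 1-cell stage and the smaller one at 16-cell and 128-cell. Without 128-cell none of the 66 passed (7 at an unadjusted p under 0.05), and none passed with the control entries (5 at an unadjusted p under 0.05).

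The other 4 eIF4G mRNAs had estimates of bound over unbound above 0, and 2 passed, against 8.46% higher of all genes tested. EIF4G3 (ENSDARG00000074331.4), an eIF4G1 homologue, had 9299, 19033 and 23996 bound counts and 5306, 6328 and 7036 unbound counts as lowest, median and highest. Its fractions did not overlap (1.49 ± 0.26, adjusted p 0.00409). With the control entries its estimate was 0.01 and did not pass. EIF4G3 (ENSDARG00000077215.3) had 7244, 9769 and 13683 bound counts and 4332, 5051 and 7480 unbound counts as lowest, median and highest (0.88 ± 0.24, adjusted p 0.0325; 0.128 without 16-cell), with bound above unbound at each stage although the ranges overlap. EIF4G2, which lacks the eIF4E site and serves cap-independent initiation, has 2 genes, and their counts overlapped between fractions. ENSDARG00000020377.9 had 40262, 48889 and 60976 bound counts against 23277, 27641 and 48816 unbound counts (0.74 ± 0.32, adjusted p 0.144). Its bound count was above the unbound one at all 6 stages, though its log2 ratio was only 0.03 at 5.3 hpf. ENSDARG00000057167.6 had 21520, 34954 and 38321 against 18495, 25025 and 33577 (0.33 ± 0.30, adjusted p 0.514), with a ratio below 0 at the 1-cell stage (−0.28).

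EIF1B (ENSDARG00000029445.6) was higher in the bound fraction at all 6 stages, with 30230, 34850 and 41555 bound counts and 9030, 11537 and 17682 unbound counts as lowest, median and highest. The lowest bound library held more than the highest unbound one (1.60 ± 0.29, adjusted p 0.00426). That call was lost in 1 of 16 alternatives, with the control entries. The paralogous mRNAs for eIF1A, which steadies the scanning subunit, were together on the unbound side early. eif1axb (ENSDARG00000057912.5) had 7964, 10695, 7302, 6678, 6571 and 9844 bound counts and 13644, 14575, 14348, 13067, 5486 and 2111 unbound counts, and its ratio was higher late by 2.03 ± 0.52 (adjusted p 0.0449). That call was lost in 9 of 16 alternatives, among them any single stage left out (adjusted p up to 0.184, without 5.3 hpf). It was also lost with the control entries, without the filter on low values and without the length adjustment (adjusted p 0.0621). eif1axa had 8987, 9577, 5338, 5361, 5126 and 4445 bound counts and 14303, 13086, 13567, 13900, 6460 and 3242 unbound counts, and its change of 1.02 ± 0.43 did not pass (adjusted p 0.182). EIF1AD, whose protein holds an eIF1A-like domain, had 125, 278 and 864 bound counts and 201, 911 and 1378 unbound counts and was lower in the bound fraction at all 6 stages (−1.36 ± 0.28, adjusted p 0.00865).

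Of the later acting factors, eif5a, whose protein helps ribosomes past difficult peptides, was lower in the bound fraction at all 6 stages. It had 2224, 5733 and 6214 bound counts and 5793, 9318 and 14158 unbound counts (−0.89 ± 0.23, adjusted p 0.0255), and leaving out any stage but 5.3 hpf ended the call (adjusted p up to 0.0826, without 16-cell). EIF5A2 (ENSDARG00000056186.6) had 30157, 28304, 28706, 32755, 9741 and 21374 bound counts and 13691, 11137, 11807, 11949, 17564 and 14548 unbound counts. By these counts it was on the bound side at every stage but 3.5 hpf. Reads summed without the length adjustment put it on the unbound side at 5.3 hpf as well, at 20806 bound and 27191 unbound. Its late change of −1.45 ± 0.46 did not pass (adjusted p 0.0898), but did with those reads (adjusted p 0.0406). EIF5, which triggers GTP hydrolysis on eIF2, had 9900, 14749 and 18979 bound counts and 8294, 12261 and 15528 unbound counts, which overlap (adjusted p 0.485). eif5b, which joins the large subunit, had ratios from −1.19 to 1.41 and EIF6, which keeps the subunits apart, from −0.66 to 1.44, and neither passed. Of the kinases that switch off eIF2, eif2ak1 was lower in the bound fraction at all 6 stages. It had 1268, 3906 and 4486 bound counts and 1903, 8396 and 11781 unbound counts (−1.14 ± 0.23, adjusted p 0.00823).

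**Figure D4:**
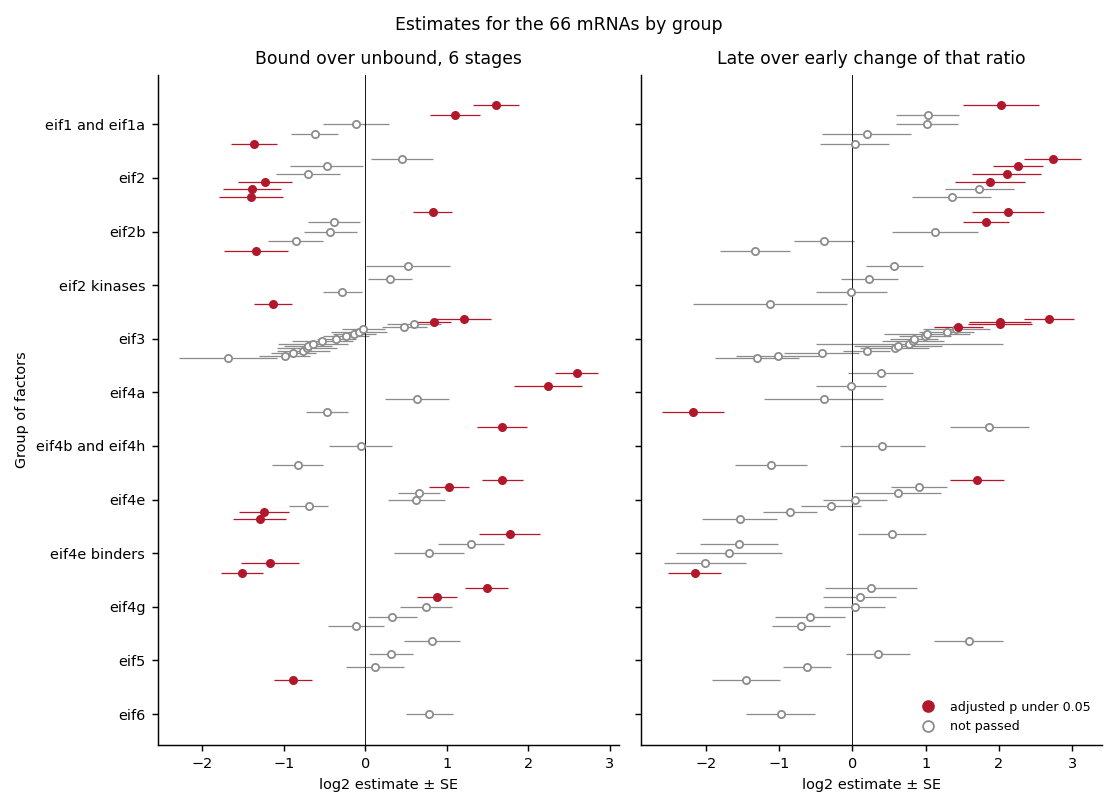
Log2 estimate ± SE of bound over unbound across the 6 stages (left) and of its late over early change (right), for the 66 mRNAs by group; filled red points have a limma adjusted p under 0.05. All 6 eif2 estimates on the right lie above 0, between 1.35 and 2.74, while on the left only 1 of them does.

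The unfractionated libraries show the level of each mRNA relative to the others in its library, and not its amount per embryo. At the late stages 4 of the 66 were higher and 10 lower than at the early ones by limma, while 22.5% of all 23949 genes tested were higher and 13% lower. The median log2 change was −0.06 for the 66 and 0.23 for all genes tested. Both late libraries were above all 4 early ones in 10 of the 66 (15.2%, against 33.9% of all genes) and below them in 20 (30.3%, against 22.4%). With median centring, which moved the median of all genes to −0.28, 3 were higher and 26 lower, and without 3.5 hpf 17 were higher and 12 lower. The share of all calls that were higher was 63.3%, and 38.2% with median centring.

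EIF4A2 (ENSDARG00000016477.10) had the largest increase of the 66. It had 276 and 2607 counts at 3.5 and 5.3 hpf and 56.6, 98.6, 87.9 and 74.3 from egg to 128-cell (3.43 ± 0.81, 10.8-fold, adjusted p 0.0162; 0.0637 without 5.3 hpf). Per length, it rose to 8.22 and 57.5 TPM late, against 1.51 to 2.74 TPM early, still under the 963 and 1223 TPM of eif4a1a late. EIF2B1 (ENSDARG00000091402.2) had 1437 and 2271 counts late and 207, 300, 180 and 201 early. Both late libraries held several times any early one (3.05 ± 0.35, 8.27-fold, adjusted p 0.00123), and the call held in all 14 alternatives. The alternative without the length adjustment left its values unchanged, since EIF2B1 could not be matched to transcripts. Of the other 4 eIF2B subunits, EIF2B3 and EIF2B4 fell and the other 2 did not pass. eif4ebp3 (ENSDARG00000054916.4) had 703 and 914 counts late and 263, 236, 207 and 189 early (1.85 ± 0.32, adjusted p 0.00524), and eif4a1a had 36918 and 63365 late and 31980, 28154, 28225 and 25733 early (0.77 ± 0.24, adjusted p 0.04). The call for eif4a1a was lost in 8 of 14 alternatives, among them each early stage left out and TMM scaling.

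The largest decrease was that of EIF2AK3 (ENSDARG00000062139.6). It had 4336 and 1724 counts at 3.5 and 5.3 hpf and 11111, 13526, 12107 and 14217 early, without overlap (−2.21 ± 0.35, 4.64-fold lower, adjusted p 0.00372). eif2ak1, the kinase known to respond to low haem, had 6012 and 1757 counts late and 10710, 9952, 7834 and 8614 early (2.83-fold lower, adjusted p 0.0337). That call was lost in 6 of 14 alternatives, among them edgeR and each early stage left out. Without 5.3 hpf the log2 change was −0.61. The other 2 kinases did not pass, with 138 and 153 counts late and 27.6 to 135 early for eif2ak2, and 935 and 665 late and 605 to 1531 early for EIF2AK4. EIF2B3 had 342 and 200 counts late and 642, 792, 829 and 679 early (−1.48 ± 0.33, adjusted p 0.013). EIF2D had 1544 and 907 counts late and 3394, 3424, 2950 and 2249 early (−1.32 ± 0.30, adjusted p 0.0151). Without 5.3 hpf the calls ended, with adjusted p 0.0516 for EIF2B3 and 0.0645 for EIF2D.

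Both eIF1A mRNAs fell. eif1axa had 5559 and 4446 counts late and 14184, 12763, 13950 and 12425 early (−1.42 ± 0.19, adjusted p 0.00203), and eif1axb 6137 and 5923 late and 13656, 11595, 12789 and 11062 early (−1.02 ± 0.18, adjusted p 0.0061). Neither pair of groups overlapped, and both calls held in all 14 alternatives. EIF2S1 (ENSDARG00000052178.3) had 1169 and 1150 counts late and 2358, 3162, 2092 and 2688 early (−1.13 ± 0.25, adjusted p 0.0126), while EIF2S1 (ENSDARG00000005827.8) had 10042 and 16690 late and 9566 to 12460 early, which overlap (adjusted p 0.498). eif4enif1, with 7332 and 4635 counts late, EIF3J (ENSDARG00000012603.8), with 4483 and 3135, and EIF2B4, with 2059 and 1547, were lower as well (adjusted p 0.0274, 0.04 and 0.0459), and each of these calls was lost in at least 5 of 14 alternatives. No eIF3 mRNA rose by this test. At 5.3 hpf alone several stood above every other unfractionated library, such as EIF3L at 6210 counts, against 1987 at 3.5 hpf and 1909 to 2268 early, and EIF3A at 26785, against 15822 at 3.5 hpf and 11193 to 15206 early.

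**Figure D5:**
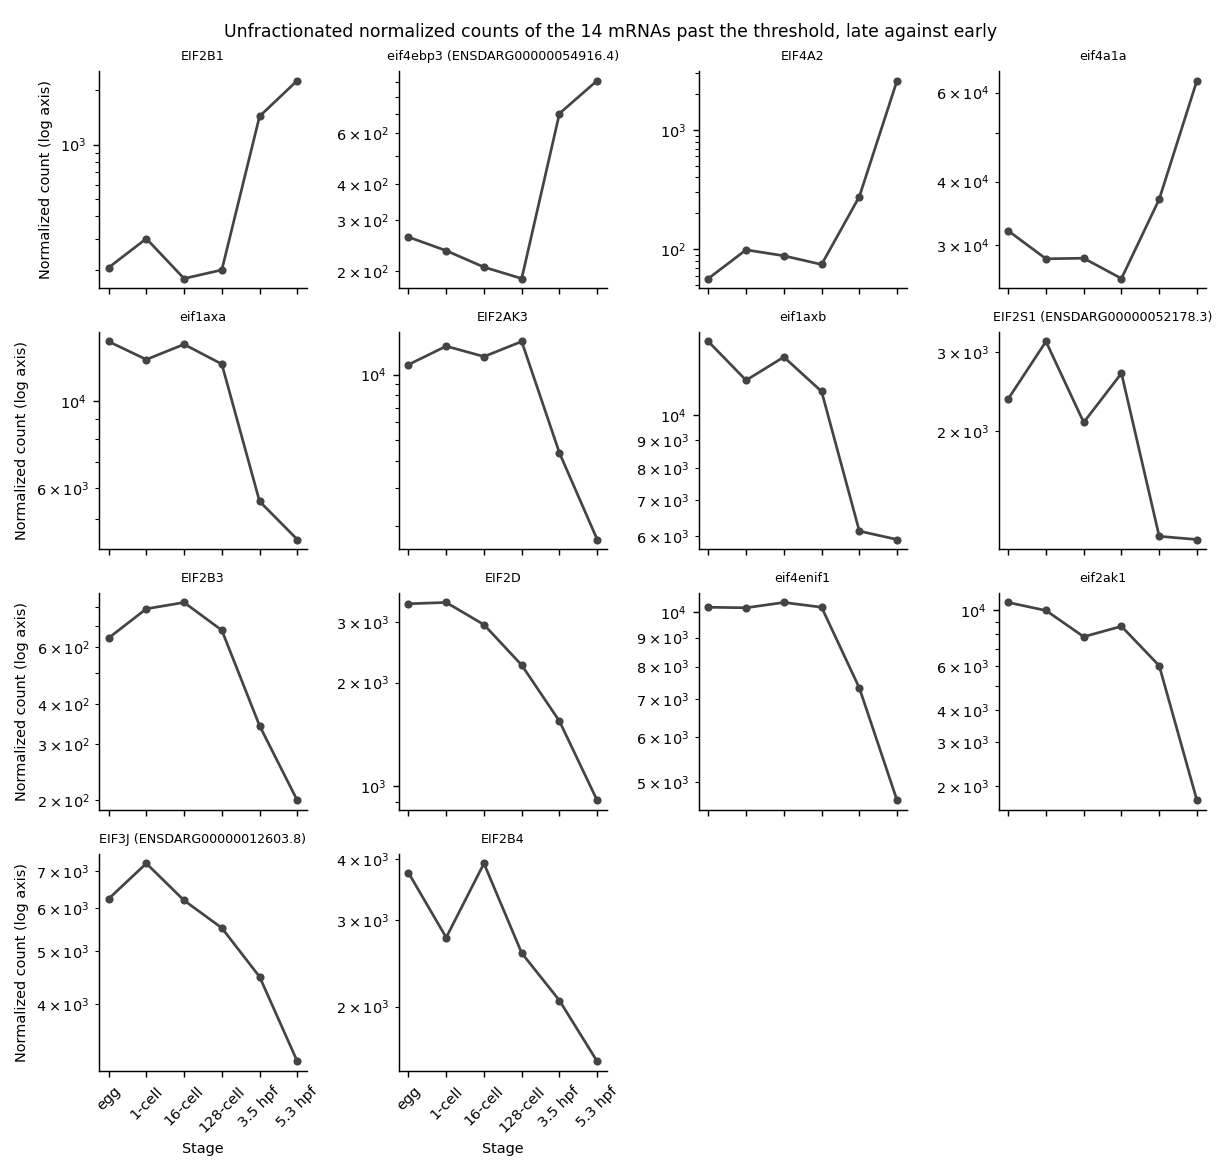
Normalized counts in the 6 unfractionated libraries by stage, on log axes, for the 14 mRNAs past the threshold in the late against early test; the first 4 panels were higher and the other 10 lower late. EIF2B1 and eif4ebp3 (ENSDARG00000054916.4) step up at 3.5 hpf, EIF4A2 mostly at 5.3 hpf, and eif1axa, eif1axb and EIF2S1 (ENSDARG00000052178.3) step down at 3.5 hpf.

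Paralogues within a group were compared at matched stages, since both are read in the same libraries and library scaling cancels. Of 35 pairs, 15 had a difference of the same sign at all 6 stages, which gives p = 0.03125 in the exact two-sided sign-flip permutation test, the smallest that 6 stages allow. With Benjamini-Hochberg adjustment over the 35 pairs none passed (adjusted p 0.0729 for these 15). Many pairs share a gene, most of all those among the 7 eIF4E mRNAs, so the 15 are not separate cases. The share among other pairs of genes was not counted. The widest mean difference was between EIF4E2 and eif4e2rs1, with mean log2 ratios of −1.30 and 1.68 and a difference of −2.97 ± 1.35 (SD, n = 6 stages). EIF4E against eif4e2rs1 differed by −2.92 ± 0.87 and eif4e2rs1 against eif4eb by 2.37 ± 0.78. eif4a1a against eif4a1b differed by 2.71 ± 1.29, least at 3.5 hpf (0.27), more at 5.3 hpf (2.28) and between 3.19 and 3.72 before. eif5a against EIF5A2 differed by −1.71 ± 0.60, EIF2S1 (ENSDARG00000005827.8) against EIF2S1 (ENSDARG00000052178.3) by 1.68 ± 0.85, and EIF3J (ENSDARG00000012603.8) against EIF3J (ENSDARG00000053370.6) by −1.13 ± 0.62, each with 1 sign throughout. Pairs such as eif1axa and eif1axb (−0.51 ± 0.67), both EIF4G2 genes (0.41 ± 0.39) and EIF4B and eif4ba (−0.77 ± 1.57) did not keep 1 sign, and the test does not show that they are alike.

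Partners of the factors were counted from lists of textbook members, to be read against all genes tested: 8.46% had more and 7.1% less in the bound fraction, 22.5% were higher and 13% lower late in the unfractionated libraries, and the ratio was higher late for 2.36% and lower for 5.39%. The lists hold few genes, so that 1 call more or less moves their shares widely. Of 14 tested repressors that act at the cap or on stored mRNA, 5 had more and 1 less in the bound fraction, with median 0.65 against −0.01 for all genes tested. patl1 was higher (1.21 ± 0.27, adjusted p 0.0115) and patl2 lower (−1.89 ± 0.29, adjusted p 0.00193). Late over early, the ratio of 2 fell, among them the helicase DDX6 (−2.41 ± 0.39, adjusted p 0.00928), and that of 1 rose, while in the unfractionated libraries 1 was higher and 4 lower. Of 13 partners of the eIF2 cycle, 3 had more and 1 less in the bound fraction, among the 3 GCN1, the activator of EIF2AK4 (1.42 ± 0.23, adjusted p 0.0029), and the median was −0.01. The ratio fell late for 2 of these 13 and rose for none.

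In the unfractionated libraries 2 of the 13 were higher late and 4 lower, with median −0.45. The stress factor atf4b was 36.6-fold higher (adjusted p 0.00164) and ppp1r15a, which directs a phosphatase to eIF2, 2.89-fold higher (adjusted p 0.012). Lower were dnajc3a, an inhibitor of eIF2 kinases (4.17-fold, adjusted p 0.01) and the phosphatase subunit PPP1CB (1.83-fold, adjusted p 0.0182). The other 2 that were lower, named after their values were seen, were the chaperone HSPA5 (3.27-fold, adjusted p 0.0259) and IMPACT, an inhibitor of EIF2AK4 activation (2.75-fold, adjusted p 0.0263). Of 18 tested genes of mTOR and MNK signalling, which controls eIF4E and its binding proteins, 2 had more and 1 less in the bound fraction, near the shares of all genes, and 6 fell and none rose in the unfractionated libraries. The ratio fell late for 2 of the 18 and rose for none, and one of the 2 was mknk1, a kinase of eIF4E (−3.55 ± 0.50, adjusted p 0.00684). Of 11 poly(A) and cap partners, LARP1 was higher in the bound fraction (1.87 ± 0.26, adjusted p 0.00132) and none lower, near the shares of all genes, and in the unfractionated libraries 1 was higher and 4 lower late. Of 8 termination and recycling genes, 1 was higher in the bound fraction, again near the share of all genes, and the ratio was higher late for 2, ABCF1 (2.79 ± 0.38, adjusted p 0.00665) and gspt1 (2.06 ± 0.52, adjusted p 0.0417).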

How the data were processed

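Polysome-bound, polysome-unbound and unfractionated RNA of 6 stages was sequenced, with 1 library each. Per the submitters' processing notes, the tools were Salmon 0.6.0, Cufflinks 2.2.1, STAR 2.4.2a, GSNAP, DESeq2, cutadapt 1.9.1 and bcl2fastq 2.16.10, with genome build GRCz10 and no role or order given. The authors deposited, per the file headers, TPM and estimated counts for 52340 transcripts per library, and a gene table whose signal is a normalized count. From the values, that signal is the estimated count divided by 1 factor per library and, for genes with several transcripts, adjusted for transcript length. For 50 of the 66 genes, sets of up to 5 transcripts gave the deposited values within 0.1% in all 18 libraries, and their TPM were summed. These sets were searched for among the transcripts by their values, rather than taken from an annotation of transcripts to genes. Symbols came from a table of gene names, which matched 22547 of 27015 identifiers. All columns of the gene table were assigned to a sample by name.

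The test was limma 3.58.1 (R 4.3.3) with a mean-variance trend on log2(normalized count + 1), fitted on all genes with at least 10 counts in at least 2 libraries. Fold changes on this scale understate those of low genes. Bound against unbound and its late change used 12 libraries with stage as a block (5 and 4 residual degrees of freedom), late against early used 6 unfractionated libraries (4 degrees), and the early slope 8 libraries with stage as a block (2 degrees). Slopes ignore the unequal times between stages. Estimates are given with the moderated SE, which draws the variance of a gene toward that of genes at a similar level. The fewer the residual degrees, the more this shared variance sets the p, most so for the early slope. edgeR 4.0.16 and DESeq2 1.42.0 were alternatives, run on the deposited gene values multiplied back by the factor of each library and rounded to whole numbers, which keep the length adjustment. The script was tested on simulated data. The pooled embryos may be technical rather than biological samples of a stage.

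Genes planned for description were up to 4 of a family with the smallest p past a threshold and the 2 most abundant of a family. Planned too were both genes of the 4 pairs with the largest mean difference, and up to 4 past the threshold for a list and comparison. For some of these only the lowest, median and highest counts or a range of ratios were given, and for many no unfractionated counts. Values of other members were chosen after they were seen. The genes and lists were chosen with earlier results of these data known. The lists of partners came from textbook roles. No sequences or coordinates are given.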

Additional observations from a re-analysis of the deposited data

Results flagged for a closer look

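For 14 of the 66 mRNAs the log2 ratio of bound over unbound was not the same at late and early stages, by the limma interaction term (adjusted p under 0.05). It was higher late for EIF2D (2.74), EIF3K (2.68), EIF2S3B (2.26), EIF2B4 (2.12), EIF2A (2.10), eif1axb (2.03), EIF3D (2.02), EIF3J (ENSDARG00000012603.8, 2.01), EIF2S1 (ENSDARG00000005827.8, 1.88), EIF2B5 (1.82), EIF4E2 (1.70) and EIF3B (ENSDARG00000059654.6, 1.45). It was lower late for eif4a1a (−2.17) and EIF4EBP3 (ENSDARG00000041607.4, −2.15). Among all genes tested 7.75% passed in either direction. EIF2D, EIF2S3B and EIF3K passed in 15 of 16 alternatives each, and all 14 calls were lost without 3.5 hpf. The bound 3.5 hpf library had the lowest bound count of eif4a1a (30190), EIF4EBP3 (3864), EIF5A2 (9741) and EIF6 (1243), 4 mRNAs named after their values were seen.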

How the results depend on the processing

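Among the calls for single mRNAs, EIF4A3 and eif4ebp1 passed in all 16 alternatives for bound against unbound. For late against early, EIF2AK3, EIF2B1, EIF2S1 (ENSDARG00000052178.3), eif1axa, eif1axb and eif4ebp3 (ENSDARG00000054916.4) passed in all 14. For bound against unbound, 13 were higher and 11 lower, against 7 and 26 with library totals, 18 and 3 with median centring, 1 and 40 with the control entries, 11 and 4 without the stage block, and 7 to 14 and 3 to 15 with 1 stage left out. With the control entries the log2 estimate turned to −0.45 for eif4e1c, −0.38 for EIF1, −0.64 for EIF3M, −0.65 for EIF2B3, −0.28 for EIF3A and −0.60 for EIF4G3 (ENSDARG00000077215.3). For late against early, 4 were higher and 10 lower, against 3 and 26 with median centring, and 2 to 17 and 5 to 12 with 1 stage left out. For the late change of the ratio, 12 were higher and 2 lower, against 6 and 0 with the control entries, 17 and 4 with DESeq2, 8 and 1 without the stage block, 4 lower with reads summed without the length adjustment, and 0 to 11 and 0 to 5 with 1 stage left out. For the early slope, 5 rose and 5 fell, against 8 and 6 with DESeq2, 6 and 3 with median centring, 0 and 0 with the control entries, and 0 to 8 and 0 to 6 with 1 stage left out. The cause of these differences was not tested, and fewer samples enter when a stage is left out. No paralogue pair passed in any setting, and with 1 stage left out the smallest exact p is 0.0625, so none could. The sum of reads without the length adjustment was added after seeing the data. Bound and unbound libraries were paired by stage, and no block by replicate number was fitted, because all libraries carry the same one. With 1 library per condition, a stage cannot be told apart from its library.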

Other observations

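Among the 50 mRNAs matched to transcripts by their values, several changed the transcript to which reads were assigned, which the gene level does not show. EIF1B has a 784-base and an 896-base transcript. The 784-base form had 1735 and 738 TPM in the bound libraries at 3.5 and 5.3 hpf and 1053 to 1220 TPM at the early stages, while in the unbound libraries it had 29.3 and 146 TPM late and 305 to 938 TPM early. The 896-base form had 620 and 486 TPM in the unbound libraries late, against 56.0 to 225 TPM early, so at 3.5 hpf the bound and unbound fractions held mainly different forms. EIF5A2 has an 814-base form with 92.1 TPM in the unfractionated library at 5.3 hpf and 235 TPM at 3.5 hpf, against 286 to 389 TPM early. Its 2793-base form had 245 TPM at 5.3 hpf and 150 TPM at 3.5 hpf, against 123 to 138 TPM early, so that the longer form was the more abundant one only at 5.3 hpf among the 6 unfractionated libraries. For EIF4E3, the 2849-base form had 6.61 and 6.58 TPM in the bound libraries at 3.5 and 5.3 hpf, against 30.2 to 57.3 TPM early, while its unbound values were 59.2 and 38.5 TPM late and 39.3 to 50.3 TPM early. These are single libraries and transcript estimates, with no test, and they were chosen after the values were seen.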
